A study of Mus musculus with 304 samples.

Results

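Single granule cells of the mouse dentate gyrus were compared 14 days and 1 day after kainic acid, across all genes of the deposited count table. Kainic acid, an agonist of a class of glutamate receptors that is used to provoke seizures, was given by injection into the hippocampus (70 nl at 5 mM). The day 14 group holds 29 cells, labelled Kainate_DG, whose side relative to the injection is not labelled. The day 1 group holds 58 cells of the injected side, labelled KA1_DG_ipsi. Levels in 31 cells of mice without an injection, labelled DG, are given beside them as a point of reference. The comparison thus covers 87 of the 252 cells labelled as passing quality control, out of 291 cells with a column in the table and 304 labelled samples. Each library came from cytosol drawn into a patch pipette, a method known as Patch-seq. The labels give no animal, age, sex, strain or genotype for any cell. Cells therefore cannot be counted as replicates, each day stands as 1 sample, and differences are described without a test. The title numbers of both groups do not overlap, so any batch that follows them cannot be told apart from the day.

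Granule cells are the excitatory neurons through which cortical input enters the hippocampus, and their mossy fibre axons run to area CA3. Strong activity in them switches on immediate early transcription factors first and then a later set of effector genes that code for synaptic regulators, secreted factors and signalling enzymes. Neurons of this kind also store neuropeptides in dense-core vesicles, and granule cells are known to make opioid peptides and, after seizures, neuropeptide Y. After an injection of kainate into the hippocampus, microglia and astrocytes become reactive around the injured neurons. Type I interferons, whose receptors are found on most cells, act through a complex that holds Stat2 and Irf9 on a shared set of target genes.

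Reads counted in genes ranged from 3316541 to 16659669 per cell at day 14, from 2655957 to 27708910 at day 1 and from 32487 to 7923833 in uninjected cells. Thinned to 2000000 reads each, day 14 cells had a median of 4652 genes with a read and day 1 cells a median of 5121. The granule cell marker Prox1 stood at 230 CPM (counts scaled to the same total) at day 14, 248 CPM at day 1 and 217 CPM in uninjected cells, and Calb1, a calcium buffer of mature granule cells, at 702, 411 and 1249 CPM. Of 27 granule cell markers, 21 were measured by the rule given below, and the level summed over all 27 was 3077 CPM at day 14, 3542 CPM at day 1 and 6767 CPM in uninjected cells. RNA of microglia moved with the day. The sum of 20 microglia markers had a median of 3119 CPM per cell (0 to 27151) at day 14 and 46.2 CPM (0 to 26778) at day 1. At or above 1000 CPM of these markers lay 20 of 29 cells at day 14, 7 of 58 at day 1 and 18 of 31 uninjected cells. These are called microglia-rich cells here, and results that they touch are also given for the 9 cells at day 14 and 51 cells at day 1 that remain without them. In the remaining cells the markers summed to 73.1 CPM at day 14 and 75.9 CPM at day 1.

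Measured genes were those with a read in 20% or more of the cells on a day and with 5 CPM or more on a day, and there were 9823. Its level on a day is the CPM of the counts summed over cells, and its log2 ratio is day 14 over day 1 after adding 1 CPM to each. By both the summed counts and the mean over cells, 1472 measured genes (15%) were at least 2-fold higher at day 14 and 1345 (13.7%) at least 2-fold lower. The median log2 ratio over all measured genes was -0.02. Without microglia-rich cells, 1589 of 9704 genes (16.4%) were that much higher and 2395 (24.7%) that much lower, with a median of -0.20. Of the genes counted with all cells, 751 of the higher and 989 of the lower were counted again. How far the cells of the groups overlap is given by the share of all pairs of a day 14 cell and a day 1 cell in which the day 14 cell has the higher CPM, with ties counted as 1/2. This share was used to pick 15 genes on either side, so their separation describes them and supports nothing further.

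**Figure D1:**
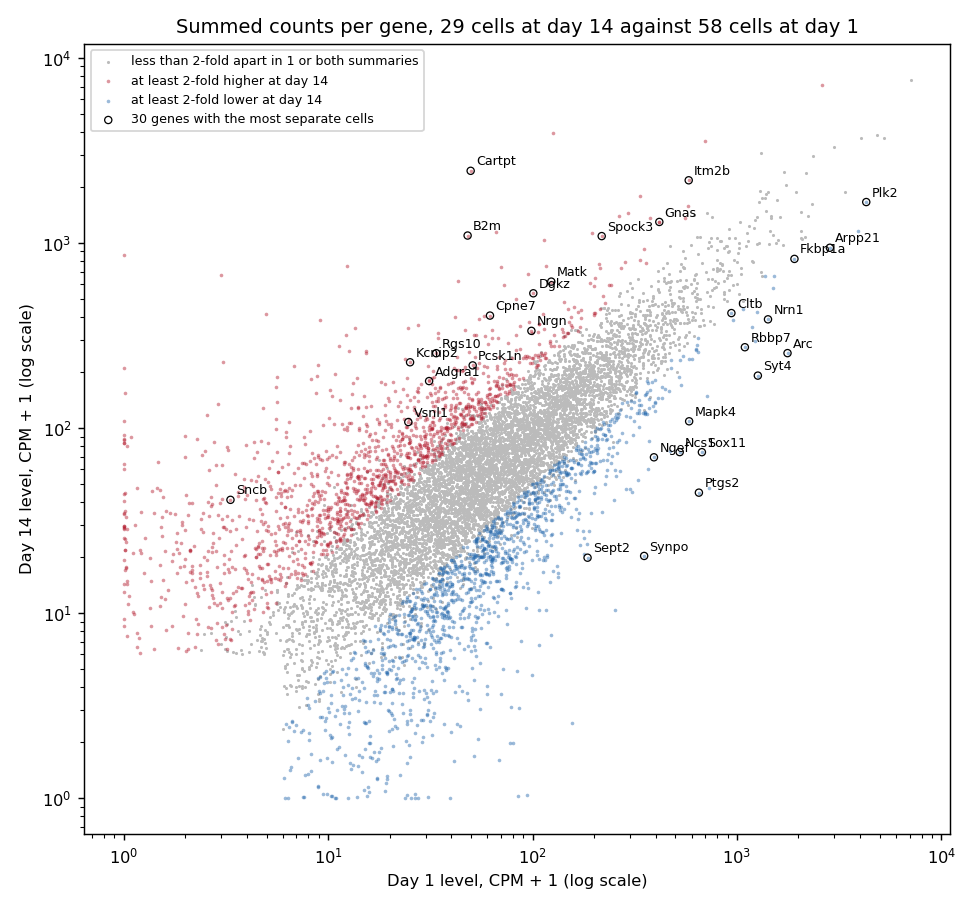
Level of each measured gene at day 14 (vertical) against day 1 (horizontal), from summed counts, in CPM + 1 on log axes. Red and blue points are at least 2-fold higher and lower at day 14 by both summaries, grey points are not, and the 30 labelled genes separate the cells best, with Cartpt and B2m far above the diagonal and Synpo and Ptgs2 far below it.

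Genes lower at day 14 were led by a calcium sensor. Ncs1, neuronal calcium sensor 1 (ENSMUSG00000062661.6, GRCm38 chromosome 2, 31245823 to 31295989, plus strand), had a lowest, median and highest level per cell of 0, 8.92 and 294 CPM at day 14, against 0, 493 and 3175 CPM at day 1. The ranges overlapped, although the day 1 median lay above every day 14 cell, and the day 14 cell was the higher in 7.25% of cell pairs. Summed over cells Ncs1 stood at 73.1 CPM at day 14, 524 CPM at day 1 and 154 CPM in uninjected cells. Syt4, a synaptotagmin of dense-core vesicles, had a median of 113.5 CPM (0 to 747) at day 14 and 781 CPM (0 to 10084) at day 1, and the day 14 cell was higher in 12.6% of pairs. Cltb, a light chain of the clathrin coat that takes up membrane, stood at 417 CPM at day 14 and 938 CPM at day 1. The ratio of Cltb was -0.26 on the log2 scale without microglia-rich cells, against -1.17 with all cells.

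Sox11, a transcription factor of immature neurons that also acts in axon growth (chromosome 12, 27334264 to 27342574, minus strand), had a median of 6.05 CPM (0 to 1190) at day 14 and 509.5 CPM (0 to 2441) at day 1. A read of Sox11 was found in 65.5% of day 14 cells and 98.3% of day 1 cells, or 62.1% and 98.3% after thinning. Only 1 day 14 cell lay above the day 1 median. The list of 20 immature neuron genes did not share this difference: of 12 measured, 0 were at least 2-fold higher and 2 lower, Sox11 and Dpysl3. The 2 make up 16.7% of the list, near the 13.7% of all measured genes, and the median log2 ratio was -0.43. Without microglia-rich cells 3 of 12 were higher and 3 lower, against 16.4% and 24.7% of all measured genes. The median was then -0.21. Dcx, the microtubule protein of newborn neurons, did not meet the rule for a measured gene in cells, with a read in 6.90% of day 14 cells and 17.2% of day 1 cells.

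Some genes for spines and the cytoskeleton were also among the lower ones. Synpo, the protein of the spine apparatus, had a median of 0.159 CPM (0 to 99.7) at day 14 and 174 CPM (0 to 1531) at day 1. Ngef, an exchange factor for small GTPases that acts downstream of ephrin receptors, had a median of 0 CPM (0 to 419.7) at day 14 and 362 CPM (0 to 2161) at day 1. Reads of Ngef were present in 44.8% of cells at day 14 and 93.1% at day 1, and its summed level was 68.5 CPM at day 14, 392 CPM at day 1 and 38.8 CPM in uninjected cells. Sept2, a septin that forms filaments at membranes, stood at 18.9 CPM at day 14 and 185 CPM at day 1. Among 31 measured spine and actin regulators 2 were at least 2-fold higher and 6 at least 2-fold lower, with a median of -0.36. The 6 lower genes make up 19.4% of the list, near the 13.7% of all measured genes, and without microglia-rich cells 7 of 31 were lower, against 24.7% of all measured genes. Ngef and Sept2 are not on this list. Its lower members included the scaffold genes Shank1 (84.8 against 264 CPM) and Dlgap3 (4.11 against 29.6 CPM) and Camk2n1, an inhibitor of the kinase CaMKII (8.95 against 55.6 CPM). Nrgn, neurogranin, a store of calmodulin in spines, was on the other side, with a median of 178 CPM (0 to 1754) at day 14 and 41.9 CPM (0 to 611) at day 1.

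**Figure D2:**
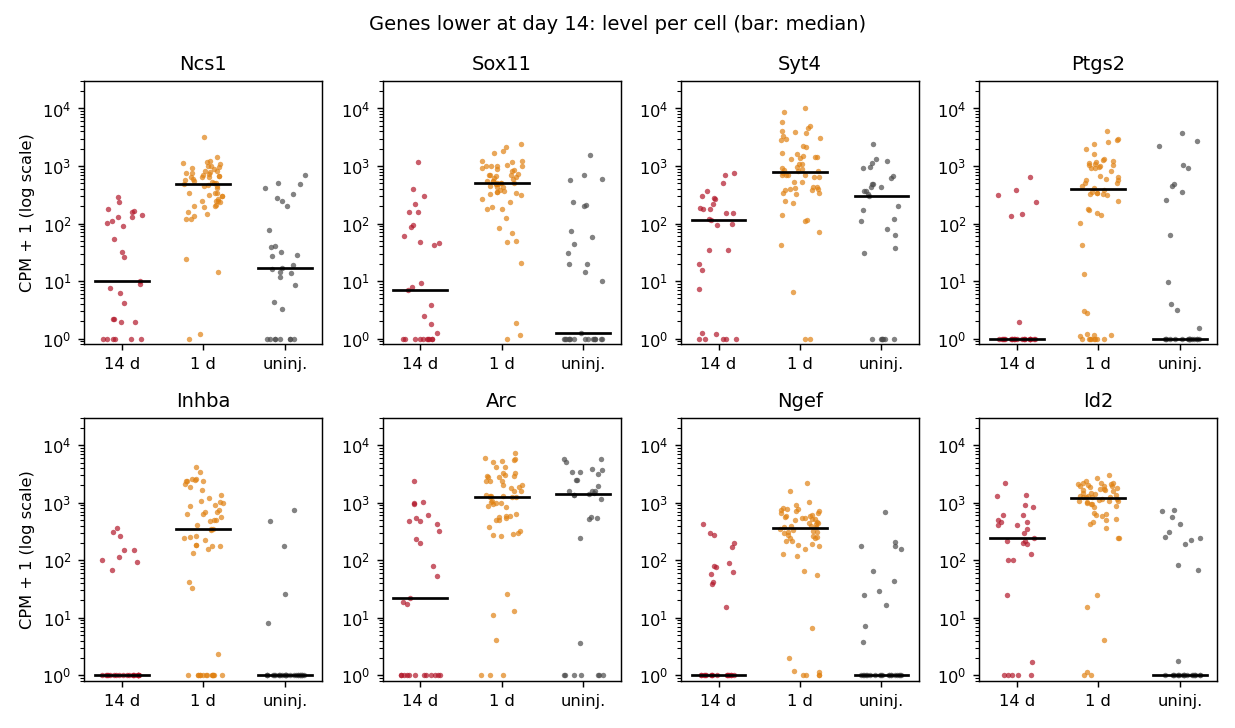
Level per cell of 8 genes lower at day 14, in CPM + 1 on a log axis, for 29 cells at 14 days, 58 cells at 1 day and 31 uninjected cells; each point is 1 cell and each bar a median. For Ncs1, Sox11, Ngef and Ptgs2 the day 14 medians (8.92, 6.05, 0 and 0 CPM) lie far under those of day 1, while for Arc the uninjected cells lie with day 1.

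Effector genes of neuronal activity were lower as a group. Of 32 listed, 31 were measured, 3 were at least 2-fold higher and 13 at least 2-fold lower, against 15% and 13.7% of all measured genes, and their median log2 ratio was -0.86 (-0.88 without microglia-rich cells). Their summed level had a median of 8068 CPM per cell (3808 to 19061) at day 14 and 16374 CPM (5420 to 38278) at day 1, so the ranges overlapped widely. Ptgs2, the inducible cyclooxygenase (chromosome 1, 150100031 to 150108227, plus strand), was read in 24.1% of day 14 cells and 86.2% of day 1 cells. Its highest cell had 646 CPM at day 14 and 4130 CPM at day 1. Inhba, a subunit of activin A, had a median of 0 CPM (0 to 362) at day 14 and 351 CPM (0 to 4232) at day 1, and was read in 31.03% and 75.9% of cells. Nrn1, neuritin, a membrane-anchored growth protein, had a median of 283 CPM (0 to 1489) at day 14 and 1139 CPM (0 to 5768) at day 1.

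Arc, which promotes the uptake of AMPA receptors, had a median of 20.7 CPM (0 to 2342) at day 14, 1256 CPM (0 to 7371) at day 1 and 1389 CPM (0 to 5836) in uninjected cells. It was thus low at day 14 relative to both other groups. Sorcs3, a sorting receptor of the synapse, had another order, with 171 CPM at day 14, 534 CPM at day 1 and 0.432 CPM in uninjected cells. Bdnf, brain-derived neurotrophic factor, was less than 2-fold apart (676 against 1050 CPM), as were Homer1 (262 against 349 CPM) and Nptx2 (366 against 328 CPM), both proteins of the glutamatergic synapse. Lonrf3, a member on the higher side (34.2 against 0.211 CPM), drew 80.02% of its day 14 reads from 1 cell.

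Plk2, a kinase that scales down synapses after prolonged activity, had reads in every cell of both days, with a median of 1511 CPM (134 to 6230) at day 14 and 3557 CPM (255 to 9142) at day 1. The 150 bases before its start are shown because they hold a full cAMP response element, the palindrome bound by CREB, in capitals, 62 bases before the start (RefSeq, GRCm38.p6, chr13:110394894-110395043, plus strand):
Plk2: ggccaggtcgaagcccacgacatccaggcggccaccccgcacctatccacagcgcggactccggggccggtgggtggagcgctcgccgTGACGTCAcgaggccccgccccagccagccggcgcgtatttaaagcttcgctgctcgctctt
Such an element (TGACGTCA, which reads alike on both strands) was found in 1 of 7 lower effector genes with a promoter in the table, in a window of 250 bases before to 50 after the start. It was found in 4.17% of promoters of all lower genes, 3.61% of those of measured genes and 1.88% of all promoters, so Plk2 was shown for itself and not as typical of the list.

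Immediate early transcription factors did not move as one. Of 25 measured, 3 were at least 2-fold higher and 3 lower (12% each), against 15% and 13.7% of all measured genes. The median was -0.31. Without microglia-rich cells 2 of 24 were higher and 8 lower, against 16.4% and 24.7% of all measured genes, with a median of -0.27. Egr2 stood at 8.97 CPM at day 14 and 60.3 CPM at day 1, Egr3 at 3.998 and 18.9 CPM, and Npas4 at 3.37 and 51.03 CPM, with 96.8% of the day 14 reads of Npas4 from 1 cell. On the other side were Maff (16.5 against 0.0237 CPM, and 0.0381 against 0.00716 CPM without microglia-rich cells) and Nr4a2 (237 against 115.3 CPM). Fos was less than 2-fold apart, with 1063 CPM at day 14, 802 CPM at day 1 and 1348 CPM in uninjected cells, and so was Junb (773, 532 and 1213 CPM). Feedback genes of the MAP kinase pathway, which is switched on by the same stimuli, counted 2 higher (9.1%) and 7 lower (31.8%) among 22. Without microglia-rich cells they counted 4 higher and 6 lower. Dusp4, a phosphatase of ERK, had 55.4 CPM at day 14 and 159.9 CPM at day 1, and Spred1, a brake on Ras signalling, 135 and 398 CPM. Spry1, another such brake, went the other way (104.02 against 19.3 CPM, read in 62.1% and 12.1% of cells).

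The remaining genes of lowest pair share have varied roles. Fkbp1a, the FK506-binding protein of calcium release channels, had a median of 629.9 CPM (0 to 1884) at day 14 and 1775 CPM (487 to 4713) at day 1. Arpp21, a cAMP-regulated RNA-binding protein, had a median of 666 CPM (0 to 6198) at day 14 and 2243 CPM (314 to 12257) at day 1. Its log2 ratio was -0.58 without microglia-rich cells, against -1.60 with them, and 35.6% of its day 14 reads came from 1 cell. Rbbp7, a histone-binding subunit of chromatin complexes, stood at 272 CPM at day 14 and 1092 CPM at day 1. Mapk4, an atypical MAP kinase, stood at 107.8 CPM at day 14 and 583 CPM at day 1, with 53.2% of its day 14 reads from 1 cell.

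Id2, the inhibitor of helix-loop-helix factors for which the study is named, was also lower at day 14. Its level per cell had a median of 241 CPM (0 to 2220) at day 14, 1212 CPM (0 to 3025) at day 1 and 0 CPM (0 to 735) in uninjected cells. The groups overlapped, and the day 14 cell was the higher in 18.7% of pairs. Id2 tracked the microglia markers among day 14 cells (r = 0.48 on the log2 scale, 29 cells, given as a description), and without microglia-rich cells it stood at 182 CPM at day 14 and 1235 CPM at day 1. Its log2 ratio was then -2.76, against -1.56 with all cells. Of 19 measured Id and helix-loop-helix genes, 3 were at least 2-fold higher (15.8%) and 4 lower (21.1%), with a median of -0.53. The shares of all measured genes were 15% and 13.7%. Without microglia-rich cells 4 of 18 were higher and 8 lower, against 16.4% and 24.7% of all measured genes. Tcf12, an E protein of the kind that Id proteins bind, was lower (19.7 against 75.6 CPM), whereas Tcf4, another, was less than 2-fold apart (490 against 360 CPM). Higher were Hes6 (54.2 against 13.1 CPM), Tcf3, with 78.5% of its day 14 reads from 1 cell, and Neurod6, with 82.3 CPM at day 14 and no read at day 1. Without microglia-rich cells Tcf3 had no read at day 14, and Neurod6 stood at 0.0127 CPM.

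Some neuropeptide genes were much higher at day 14. Cartpt, the precursor of the CART peptides (ENSMUSG00000021647.7, chromosome 13, 99898489 to 99901091, minus strand), had a median of 636 CPM (0 to 11901) at day 14, 0 CPM (0 to 757) at day 1 and 0 CPM (0 to 1085) in uninjected cells. A read of Cartpt was found in 86.2% of day 14 cells and 20.7% of day 1 cells, or 79.3% and 18.97% after thinning. Summed levels were 2453 CPM (exact Poisson interval 2447 to 2459) and 48.8 CPM (48.2 to 49.5), a 50.2-fold difference. These intervals cover the counting of reads alone and not the spread between cells or animals. The level of Cartpt did not track the microglia markers among day 14 cells (r = 0.02), and its log2 ratio was 5.83 without microglia-rich cells, against 5.62 with all cells.

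Npy, neuropeptide Y, differed in level but hardly in the share of cells. It was read in 65.5% of day 14 cells and 56.9% of day 1 cells, with a median of 53.9 CPM (0 to 10219) at day 14 and 7.36 CPM (0 to 9261) at day 1. The day 14 cell was the higher in 56.8% of pairs, although the summed level was 5.37-fold higher. Summed over cells Npy stood at 1796 CPM at day 14, 334 CPM at day 1 and 2.89 CPM in uninjected cells. Of its reads, 1 cell gave 36.5% at day 14 and 1 cell gave 44.6% at day 1. Penk, the enkephalin precursor, was high on both days, with 7604 CPM at day 14, 7070 CPM at day 1 and 38.5 CPM in uninjected cells. Trh, the precursor of thyrotropin-releasing hormone, stood at 380.3 CPM at day 14, 8.09 CPM at day 1 and had no read in uninjected cells, but 1 cell gave 75.1% of its day 14 reads. Pdyn, the dynorphin precursor, was lower at day 14 (156 against 361 CPM), and Cck, at 164 against 44.1 CPM, was lower without microglia-rich cells (20.6 against 38.5 CPM). Of 30 listed precursors and granins 16 were measured, 5 higher (31.25%) and 1 lower (6.25%), against 15% and 13.7% of all measured genes. The median was 0.11. Without microglia-rich cells 4 of 17 were higher and 1 lower, against 16.4% and 24.7% of all measured genes, with a median of -0.14.

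Some pairs of peptides were read in the same cells on both days. Whether this went beyond the share of cells with each peptide alone was not tested. In thinned cells, Cartpt and Penk were both read in 20 of 29 day 14 cells and 9 of 58 day 1 cells. Cartpt was read without Penk in 3 cells at day 14 and 2 at day 1, and Penk without Cartpt in 1 and 27. Cartpt and Npy were both read in 15 of 29 day 14 cells and 4 of 58 day 1 cells, while Npy and Penk were both read in 15 of 29 and 18 of 58. Cartpt was read without Npy in 8 cells at day 14 and 7 at day 1, and Npy without Cartpt in 2 and 26. Npy was read without Penk in 2 and 12 cells, and Penk without Npy in 6 and 18. Pcsk1n, a proprotein that holds back the convertase PCSK1, had a median of 171 CPM (0 to 757) at day 14, 28.5 CPM (0 to 343) at day 1 and 141 CPM (0 to 476) in uninjected cells. Cadps, a priming factor of dense-core vesicles, was also higher (205 against 44.8 CPM), and the other 8 of 10 measured processing genes were less than 2-fold apart. The 2 higher genes make up 20% of the list, near the 15% of all measured genes. The median log2 ratio of the processing genes was -0.01. Without microglia-rich cells 3 of 11 were higher and 1 lower, against 16.4% and 24.7% of all measured genes. The median was then 0.49.

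**Figure D3:**
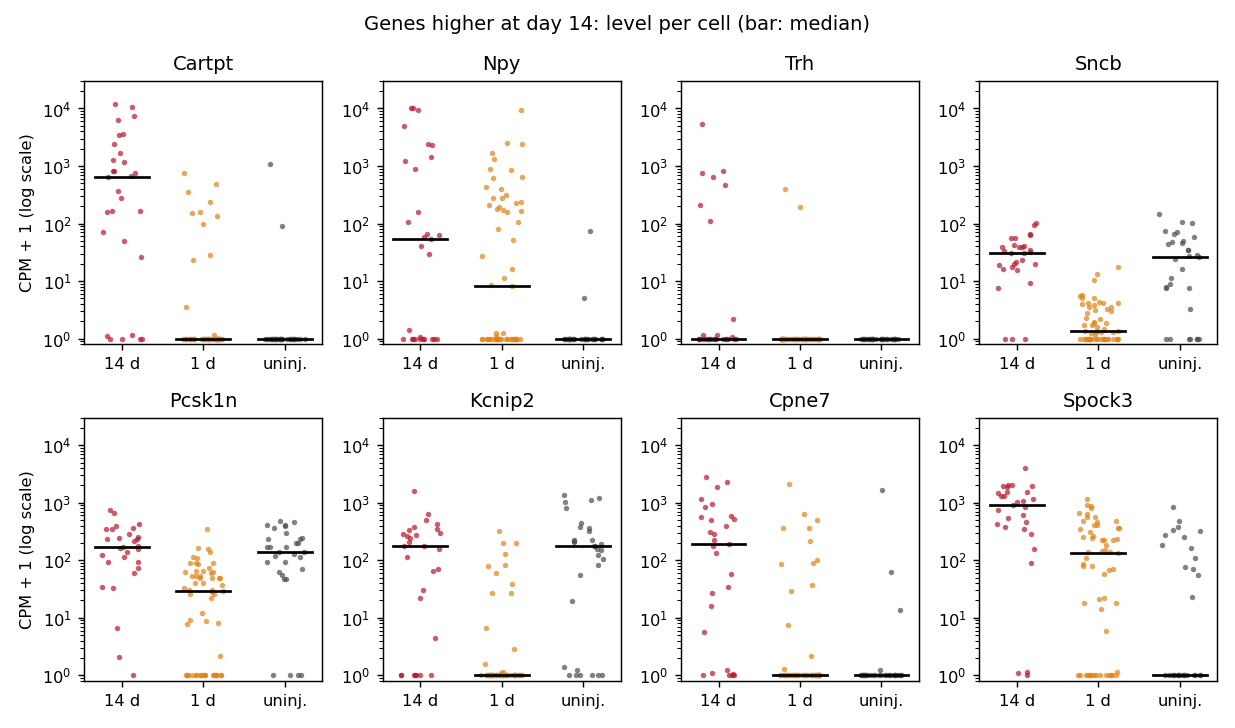
Level per cell of 8 genes higher at day 14, in CPM + 1 on a log axis, for 29 cells at 14 days, 58 cells at 1 day and 31 uninjected cells; each point is 1 cell and each bar a median. Cartpt and Cpne7 have a median of 0 CPM at day 1 and in uninjected cells, whereas Sncb, Pcsk1n and Kcnip2 have day 14 medians (30.3, 171 and 176 CPM) close to the uninjected ones (24.7, 141 and 174 CPM).

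Sncb, beta-synuclein, a protein of presynaptic terminals (ENSMUSG00000034891.13, chromosome 13, 54758860 to 54766595, minus strand), had the highest pair share, 91.1%. Its level per cell had a median of 30.3 CPM (0 to 101.3) at day 14, 0.358 CPM (0 to 16.5) at day 1 and 24.7 CPM (0 to 148) in uninjected cells. The summed level was 17.1-fold higher, 39.9 against 2.33 CPM. Kcnip2, an auxiliary subunit of the Kv4 potassium channels that carry A-type current, had a similar order, with 226 CPM at day 14, 24.2 CPM at day 1 and 263 CPM in uninjected cells. It was read in 75.9%, 25.9% and 80.6% of cells. Matk, a kinase that inhibits Src, was again alike at day 14 and in uninjected cells (617, 122.6 and 622 CPM).

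Signalling genes made up much of the rest of this set. Gnas, the stimulatory G protein alpha subunit, had a median of 1194 CPM (0 to 2545) at day 14, 471 CPM (0 to 1074) at day 1 and 756 CPM (0.538 to 2531) in uninjected cells. Dgkz, a kinase that removes diacylglycerol, had a median of 399 CPM (0 to 2964) at day 14 and 29.3 CPM (0 to 697) at day 1. Rgs10, a terminator of G protein signals that microglia also express, was read in 86.2% of cells at day 14 and 31.03% at day 1. Without microglia-rich cells Rgs10 stood at 201 CPM at day 14 and 17.3 CPM at day 1. Vsnl1, a calcium sensor related to Ncs1, was higher, with 106.8 CPM at day 14 and 23.7 CPM at day 1, the opposite of Ncs1. Adgra1, an adhesion G protein-coupled receptor, stood at 178 and 30.2 CPM.

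Spock3 and Cpne7 were higher at day 14 than in both other groups. Spock3, a proteoglycan of the extracellular matrix, had a median of 910.3 CPM (0 to 4023) at day 14, 135 CPM (0 to 1153) at day 1 and 0 CPM (0 to 826) in uninjected cells. Cpne7, a calcium-dependent membrane-binding protein that is also on the list of CA and mossy cell markers, stood at 404 CPM at day 14, 60.9 CPM at day 1 and 58.4 CPM in uninjected cells. It was read in 86.2%, 24.1% and 12.9% of cells. Itm2b, a membrane protein that binds the amyloid precursor, stood at 2180 CPM at day 14 and 580 CPM at day 1, but at 732 and 560 CPM without microglia-rich cells. It alone of these 15 genes was then less than 2-fold apart.

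Set beside uninjected cells, the 30 genes had unlike orders. Of the 15 lower genes, 15 were above the uninjected level at day 1 and 4 at day 14, and 9 were within 2-fold of that level at day 14. Of the 15 higher genes, 13 were above it at day 14 and 3 at day 1, and 8 were within 2-fold of it at day 14. The genes were picked on their day 1 and day 14 levels, which favours such an order, and the uninjected cells were shallower. Without microglia-rich cells the 30 kept their direction, and 14 of the 15 higher and 12 of the 15 lower were still at least 2-fold apart. The exceptions on the lower side were Arpp21, Cltb and Plk2.

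Lists of ion channels and receptors held genes on both sides, and the sodium, calcium and HCN list lay mostly on the higher side. Of 32 measured potassium channel genes, 7 were at least 2-fold higher (21.9%) and 4 lower (12.5%), against 15% and 13.7% of all measured genes. Without microglia-rich cells 10 of 33 were higher and 11 lower, against 16.4% and 24.7% of all measured genes. Beside Kcnip2, the related Kcnip4 (178 against 45.95 CPM) and Kcnd2, the pore subunit Kv4.2 that these proteins bind (99.7 against 25.9 CPM), were higher, and so was Kcnq3, a subunit of the M channel (86.1 against 30.9 CPM). Kcnk1, a leak channel, was lower (258 against 647 CPM). Among 25 sodium, calcium and HCN channels 5 were higher (20%) and 2 lower (8%). Of the 25 log2 ratios 19 were above 0, with a median of 0.36. Without those cells 11 of 25 were higher, against 16.4% of all measured genes, and 4 lower, against 24.7%. The median was then 0.53. Scn1a (113.7 against 29.1 CPM), Scn2a1 (208 against 72.3 CPM) and the beta subunit Scn3b (129 against 36.2 CPM), all of sodium channels, were higher. Cacna1e, the R-type calcium channel, was lower, with a median of 1.62 CPM (0 to 921) at day 14 and 263 CPM (0 to 1614) at day 1.

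Genes for GABA receptors were found on both sides. Of 15 measured genes for these receptors and chloride transport 3 were higher (20%) and 2 lower (13.3%), against 15% and 13.7% of all measured genes. Without microglia-rich cells 3 of 15 were higher and 3 lower. Gabra5 stood at 438 CPM at day 14 and 148 CPM at day 1. Gabra2 was lower (72.3 against 258 CPM), as was Kctd16, an auxiliary subunit of GABA type B receptors (8.63 against 66.5 CPM). Of 16 ionotropic glutamate receptor genes, only Gria4 (165 against 43.01 CPM) was at least 2-fold higher and only Grid1 (1.40 against 20.7 CPM) at least 2-fold lower. Each makes up 6.25% of the list. Without microglia-rich cells 3 of 16 were higher and 5 lower, against 16.4% and 24.7% of all measured genes. Among 34 genes of vesicle release 4 were higher (11.8%) and 5 lower (14.7%), near the shares of all measured genes. Without microglia-rich cells 6 of 33 were higher and 6 lower. Rab3a, a GTPase of synaptic vesicles, was higher (793 against 283 CPM), and so was the active zone gene Rims1 (99.95 against 23.4 CPM), while Cplx1 (514 against 220 CPM) and Cplx2 (40.5 against 109.6 CPM), both complexins, differed in opposite directions.

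Genes for contact between cells were found on both sides. Of 46 synaptic adhesion genes 8 were at least 2-fold higher (17.4%) and 9 lower (19.6%), near the 15% and 13.7% of all measured genes. Without microglia-rich cells 6 of 45 were higher and 17 lower, against 16.4% and 24.7% of all measured genes. Cntn4, a contactin, stood at 191 CPM at day 14, 7.82 CPM at day 1 and had no read in uninjected cells, with 48.5% of its day 14 reads from 1 cell. Igsf3, of the immunoglobulin superfamily, was read in 17.2% of day 14 cells and 77.6% of day 1 cells (2.10 against 77.8 CPM). Axon guidance genes counted 11 higher (28.9%) and 5 lower (13.2%) among 38, and 9 higher and 8 lower among 36 without those cells. Ntng1, a netrin-G, was higher (100.3 against 11.4 CPM, read in 62.1% and 17.2% of cells), as was Sema3a, a repellent (42.1 against 2.64 CPM), while Sema3e (37.1 against 128.4 CPM) and the semaphorin co-receptor Nrp1 (119.7 against 331 CPM) were lower.

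In the matrix list, of which 19 genes were measured, 6 were higher (31.6%) and 4 lower (21.1%), against 15% and 13.7% of all measured genes. Without microglia-rich cells 4 of 19 were higher and 5 lower, against 16.4% and 24.7% of all measured genes. The protease inhibitors Timp1 and Timp2 stood apart: Timp1 had 0.700 CPM at day 14 and 50.8 CPM at day 1, and Timp2 had 359.7 and 26.6 CPM. Growth factor signalling also held differences in both directions. Fgfr2, a receptor of fibroblast growth factors, had at most 17.4 CPM in any day 14 cell and up to 1888 CPM at day 1 (0.993 against 79.1 CPM summed). Among 23 genes of BMP, activin and TGF-beta signalling 5 were higher (21.7%) and 4 lower (17.4%). Without microglia-rich cells 4 of 21 were higher and 7 lower. Beside Inhba, the transducer Smad3 was lower (27.1 against 101.9 CPM), and the BMP antagonist Chrd was higher (70.4 against 9.43 CPM). Bmp3 had 33.3 CPM at day 14 and no read at day 1, at least 5149-fold more when 3 counts over the day 1 group are set as its limit. This limit covers the counting of reads alone and bounds no difference between cells or animals.

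Few stress genes were at least 2-fold apart. Of 27 heat shock and unfolded protein genes, 0 were at least 2-fold higher and 5 lower (18.5%, against 13.7% of all measured genes), and the median was -0.52. Without microglia-rich cells 1 of 28 was higher and 5 were lower, against 24.7% lower among all measured genes, and the median was -0.51. Atf6, a sensor of the unfolded protein response, was among the lower ones (16.8 against 74.3 CPM), and so was the co-chaperone Dnajb5 (74.4 against 197 CPM). Of 81 cytosolic ribosomal protein genes 1 was higher and 16 lower (19.8%), with a median of -0.56. Without microglia-rich cells 45 were lower and the median was -1.26. Their summed level tracked the microglia markers among day 14 cells (r = 0.69). Nuclear genes of the respiratory chain hardly differed, with 1 of 78 higher, 0 lower and a median of 0.24. Of 11 measured genes of the mitochondrial genome 5 were higher (45.5%) and 0 lower, against 15% and 13.7% of all measured genes. The median was 0.88. Without microglia-rich cells 1 of 10 was higher, against 16.4% of all measured genes, with a median of 0.14. For mt-Nd5, 1 cell gave 56.3% of the day 14 reads. Of 15 measured histone genes 2 were higher (13.3%) and 5 lower (33.3%), with a median of -0.33. Without microglia-rich cells 2 of 14 were higher and 4 lower, with a median of 0.12. The linker histone gene H1f0 stood at 19.1 CPM at day 14 and 113.3 CPM at day 1, and another, Hist1h1c, was read in 17.2% of cells at day 14 and 65.5% at day 1. A further linker histone gene, H1fx, was higher (9.83 against 1.62 CPM).

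**Figure D4:**
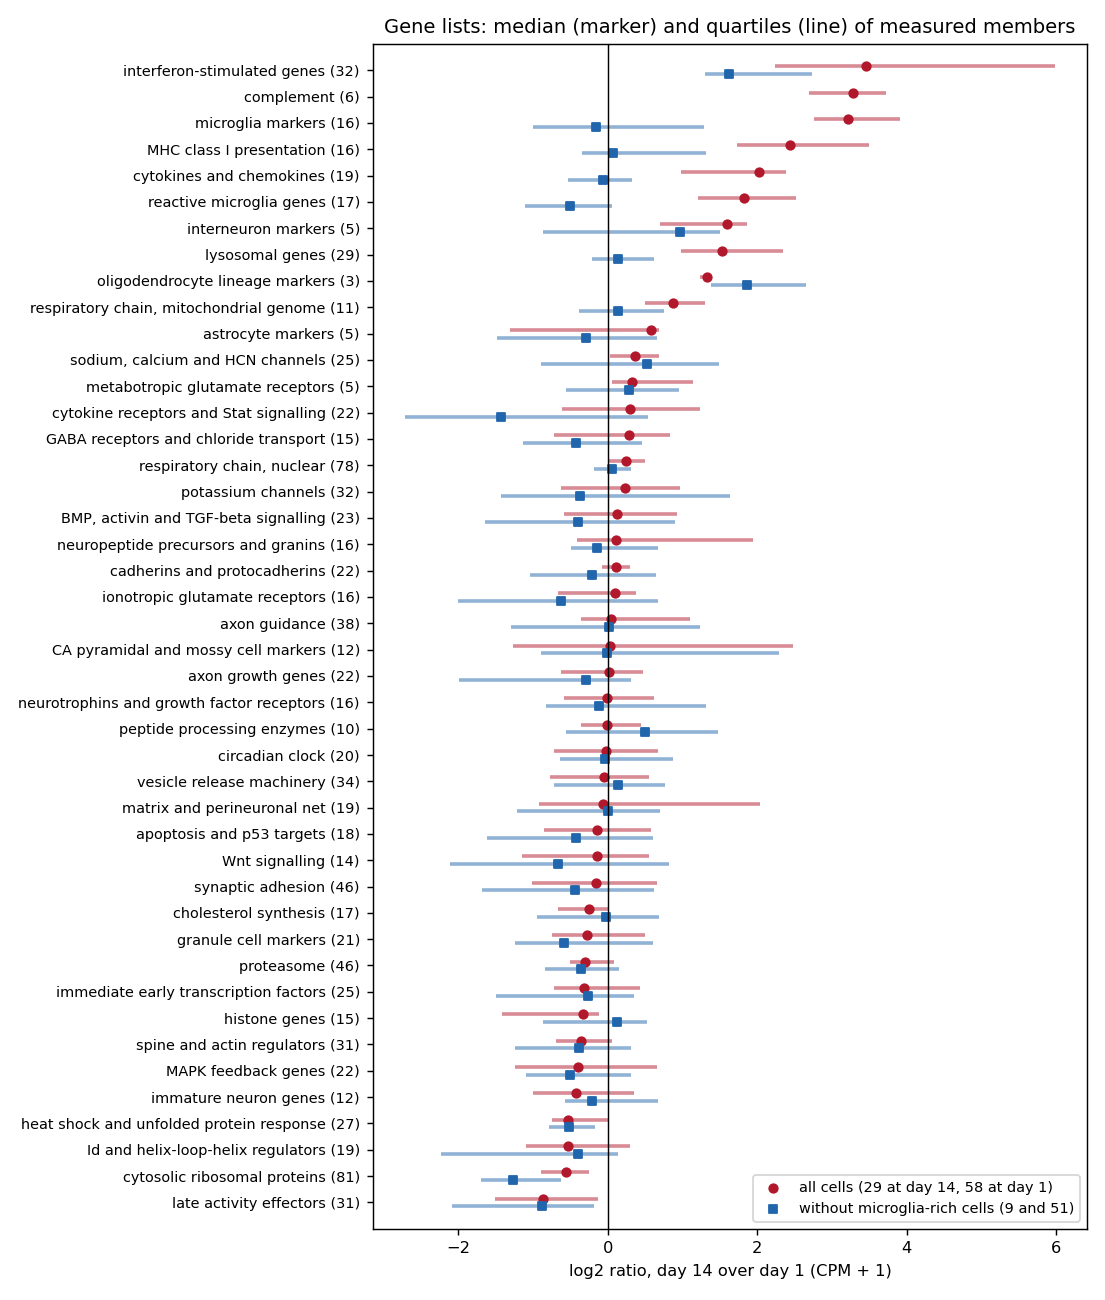
Median (markers) and quartiles (lines) of the log2 ratio, day 14 over day 1, of the measured members of 44 gene lists. Red circles are with all cells and blue squares without microglia-rich cells. Brackets give the number of members measured with all cells. The rule for measured genes was applied anew for the squares, which can cover other members, and 43 lists have both medians. Interferon-stimulated genes lead on the right (median 3.46 over 32 genes, and 1.62 over 15 without those cells). The microglia list (16 members) moves to -0.15 over 7, and effector genes of activity stay at the left (-0.86 and -0.88).

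Immune genes were higher at day 14 in nearly every list, and microglia RNA was higher with them. Of 60 listed interferon-stimulated genes 32 were measured, of which 30 were at least 2-fold higher and 0 lower, with a median of 3.46. Among all measured genes 15% were higher. A gene needs to pass the rule on 1 day only, so members near 0 at day 1 entered through day 14. This favours counts on the higher side in this and the next lists. Of 16 class I presentation genes 13 were higher, of 19 cytokines and chemokines 13, of 29 lysosomal genes 18, of 17 genes of reactive microglia 12 and of 16 microglia markers 15. All 6 measured of 16 listed complement genes were higher, some of which are also on the microglia list. The microglia markers summed to 6594 CPM at day 14, 795 CPM at day 1 and 3763 CPM in uninjected cells. P2ry12, a purine receptor specific to microglia, had 90.2 CPM at day 14 and no read at day 1. Markers of macrophages, T cells and neutrophils summed to 34.8 CPM at day 14 and 3.75 CPM at day 1 over 20 genes, none of them measured by the rule. The part of microglia RNA in these differences was not tested, and single lists are given below without the cells that hold most of it.

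B2m, the light chain of class I molecules, had a median of 368 CPM (0 to 3664) at day 14, 0 CPM (0 to 776) at day 1 and 4.67 CPM (0 to 2119) in uninjected cells. Without microglia-rich cells it stood at 67.4 CPM at day 14 and 24.01 CPM at day 1. H2-K1, a class I heavy chain, stood at 259 CPM at day 14 and 14.3 CPM at day 1, or 25.5 and 7.51 CPM without those cells. Over the class I list the median log2 ratio was 2.44 with all cells (16 measured genes) and 0.07 without microglia-rich cells (12). Lysosomal genes behaved alike (1.53 over 29 genes and 0.14 over 21). Cytokines and chemokines had a median of 2.03 over 19 genes and -0.06 over 6. The rule for measured genes was applied anew without those cells, so the 2 medians of a list do not cover the same genes. Apoe, the apolipoprotein of reactive microglia and astrocytes, stood at 3942 CPM at day 14 and 125.1 CPM at day 1, but at 5.14 and 20.8 CPM in the remaining cells.

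Interferon-stimulated genes stayed higher in those remaining cells. There, 15 were measured, under the same rule that needs 1 day only, and the median was 1.62. Of these, 11 were at least 2-fold higher and 0 lower, against 16.4% and 24.7% of all measured genes. The summed level of the 60 listed genes had a median of 868 CPM (81.2 to 4286) in the 9 remaining day 14 cells and 177 CPM (0 to 1064) in the 51 remaining day 1 cells. In microglia-rich cells it had a median of 3383 CPM (770.1 to 10935) at day 14 and 743 CPM (0.361 to 1639) at day 1. The sum tracked the microglia markers at day 14 (r = 0.74, 29 cells) and hardly at day 1 (r = 0.12, 58 cells), where both measures share a cell's library and depth.

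**Figure D5:**
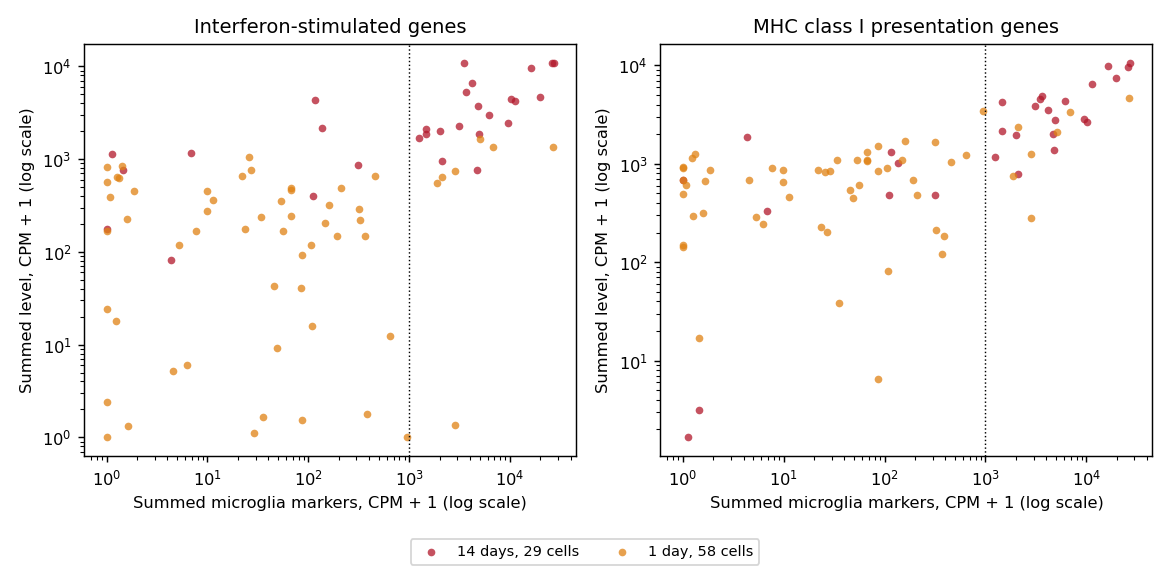
Summed CPM + 1 of interferon-stimulated genes (left) and class I presentation genes (right) against summed microglia markers, on log axes, for 29 cells at day 14 (red) and 58 cells at day 1 (orange); each point is 1 cell and the dotted line marks 1000 CPM of microglia markers. To the left of the line the interferon sum has a median of 868 CPM in 9 day 14 cells and 177 CPM in 51 day 1 cells, while the class I sums overlap (482 and 684 CPM).

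Among the factors that carry the interferon signal, Stat2 stood at 80.3 CPM at day 14 and 12.9 CPM at day 1, and at 34.9 CPM at day 14 and 9.45 CPM at day 1 in the cells that remain without microglia-rich ones. Irf9 stood at 140 CPM at day 14 and 49.4 CPM at day 1, and at 151 and 49.8 CPM in the remaining cells. Irf7, which amplifies the response, was read in 58.6% of day 14 cells and 20.7% of day 1 cells, and stood at 49.8 and 4.41 CPM in the remaining cells. Of the targets, Ifit1, which binds foreign RNA, had 154 CPM at day 14 and 0.0129 CPM, or 6 reads in all, at day 1, and 235 against 0.0119 CPM in the remaining cells. A read of Ifit1 was found in 31.03% of day 14 cells, the highest of which had 1207 CPM and gave 42.1% of the reads. Oasl1, of the oligoadenylate synthetase family, had 107.9 CPM at day 14 and 2 reads at day 1, and no read in the 9 remaining day 14 cells.

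Interferon targets carry the interferon-stimulated response element, bound by a complex that holds Stat2 and Irf9. Its core (GAAA, any 2 bases, GAAA), searched on both strands with overlaps counted, was found in 11 of the 24 higher interferon-stimulated genes with a promoter in the RefSeq table (45.8%). Among all measured members of the list, whatever their difference, 12 of 26 with a promoter held it (46.2%). It was found in 3.85% of the promoters of all higher genes, in 2.78% of those of 7472 measured genes and in 3.49% of all 27025. The list is made of interferon targets, so its share follows from membership and tells nothing of day 14. Ifit1 and Isg15 are shown because their elements lie close together, in capitals, within the 150 bases before the start (RefSeq, GRCm38.p6), in Ifit1 on the opposite strand (chr19:34640739-34640888, plus strand) and in Isg15 as a run of 3 overlapping matches (chr4:156200819-156200968, minus strand):
Ifit1: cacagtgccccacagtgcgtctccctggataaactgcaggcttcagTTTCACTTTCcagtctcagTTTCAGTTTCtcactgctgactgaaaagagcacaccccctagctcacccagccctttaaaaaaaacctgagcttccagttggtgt
Isg15: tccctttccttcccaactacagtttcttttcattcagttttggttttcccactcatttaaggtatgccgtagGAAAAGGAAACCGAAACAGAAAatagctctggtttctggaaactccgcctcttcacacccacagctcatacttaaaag
Isg15, a ubiquitin-like protein, stood at 33.8 CPM at day 14 and 0.409 CPM at day 1. A match describes the sequence and does not show that the site is bound.

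Receptors for cytokines went in both directions. Il1r1, the interleukin-1 receptor, had 0.0115 CPM at day 14, 29.9 CPM at day 1 and 27.3 CPM in uninjected cells, and was read in 3.45%, 31.03% and 25.8% of cells. Stat3, the transducer of interleukin-6 type cytokines, was lower at day 14 (137 against 313 CPM). Jak2, a kinase of these receptors, was higher (103.2 against 8.41 CPM), with 62.4% of its day 14 reads from 1 cell. Of 22 measured genes 5 were higher (22.7%) and 4 lower (18.2%), against 15% and 13.7% of all measured genes, with a median of 0.29. Without microglia-rich cells 4 of 21 were higher and 11 lower, against 16.4% and 24.7% of all measured genes, with a median of -1.42.

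Oligodendrocyte lineage markers were also higher at day 14. They summed to 374 CPM at day 14 and 146 CPM at day 1. Of 16 listed members 3 were measured, and all 3 were at least 2-fold higher (median 1.33), against 15% of all measured genes. Without microglia-rich cells 4 of 4 were higher (median 1.87), against 16.4% of all measured genes. Members low at day 1 could enter through day 14 alone. Mbp, a myelin protein, stood at 253 CPM at day 14 and 113.5 CPM at day 1. The part of oligodendrocyte RNA in other results was not tested. Astrocyte markers summed to 599 CPM at day 14 and 502 CPM at day 1. Of 16 listed, 4 had no read at day 14, among them Aqp4 and Gja1, and 2 had none at day 1. Of 5 measured, 3 had a log2 ratio above 0 and 2 under 0, with a median of 0.58 (-0.29 without microglia-rich cells). Gfap stood at 122.2 CPM at day 14 and 47.9 CPM at day 1, but 84.3% of its day 14 reads came from 1 cell. Endothelial and mural markers summed to 10.6 CPM at day 14 and 13.6 CPM at day 1. Interneuron markers summed to 1378 and 766 CPM, mostly from Gad1, which granule cells also express (1072 and 659 CPM), while Slc32a1, the vesicular GABA transporter, was near 0 on both days. Markers of CA pyramidal and mossy cells summed to 946 CPM at day 14 and 420.5 CPM at day 1. Of these, 4 of 12 were higher and 3 lower, against 15% and 13.7% of all measured genes. Without microglia-rich cells 3 of 10 were higher and 2 lower, against 16.4% and 24.7% of all measured genes. Cpne7 is among them, and Bok was also higher (256 against 47.8 CPM). Eif2s3y, a Y-linked gene, was read in 51.7% of day 14 cells, 25.9% of day 1 cells and 54.8% of uninjected cells (187, 31.9 and 233 CPM). The sex of the animals and the day cannot be told apart.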

How the data were processed

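Patch-seq libraries were made from cytosol of single cells with the Nextera XT kit, per the labels' protocols. The submitters' processing notes name Trimmomatic, STAR, featureCounts and the build GRCm38. Neither versions nor the counting strand nor the quality control rule is stated there. The authors deposited whole-number counts for 22800 genes in 291 cells, which gave all levels, and a scaled signal for 252 cells. The deposited signal equals the counts times a factor per cell (0.187 to 287) and served as an alternative. Units were settled from the values, since the tables' names are the reverse of their contents.

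Groups came from the labels, and only cells labelled as passing were used (5 failing day 1 cells and 0 day 14 cells were left for an alternative). Per day, counts were added up, 259910098 reads at day 14 and 464410001 at day 1, and scaled to CPM with Python 3.11.15, pandas 2.3.3 and numpy 2.4.6. Ratios were taken after adding 1 CPM, and folds without it. A gene counted as higher or lower where the ratios from summed counts and from the mean over cells both passed 2-fold. The code was tested on simulated data. No 2 of the 87 cells were duplicates (highest correlation 0.755). The labels name no molecular identifier, so 95% intervals and the floor of 3 counts cover counting error only. Doublets were not called, since each library is 1 pipette sample. Gene coordinates come from GENCODE vM21.

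The members, 47 gene lists and rules were chosen with earlier results of these data known. Named are Id2, the 15 genes of highest and the 15 of lowest share of cell pairs (counted genes of 1 sign in thinned cells, without unnamed gene models, pseudogenes and mitochondrial or ribosomal protein genes) and up to 4 members of each list by size of ratio. Further list members were chosen after their values were seen, as markers, receptors or partners: Prox1, Calb1, Dcx, Shank1, Sorcs3, Bdnf, Homer1, Nptx2, Nr4a2, Fos, Junb, Dusp4, Spred1, Tcf4, Tcf12, Penk, Pdyn, Kcnq3, Kcnk1, Scn2a1, Scn3b, Rab3a, Cplx1, Cplx2, Sema3e, Nrp1, Smad3, Chrd, Stat3, Irf7, Irf9, Isg15, Aqp4, Gja1, Gad1 and Slc32a1. Results on some genes are not reported here.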

Additional observations from a re-analysis of the deposited data

Results flagged for a closer look

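Cells outside the comparison gave a signal above the uninjected range. At day 1, 2 cells came from the side opposite the injection and entered no comparison. Of the genes lower at day 14, Nrn1 stood at 2333 and 3507 CPM in these cells, against 1694 CPM in the highest uninjected cell. Mapk4 stood at 622 and 715 CPM in them, against 549 CPM in the highest uninjected cell. Over the 15 genes of lowest pair share, the summed level of the 2 cells was above the uninjected level for 13 and within 2-fold of the injected side at day 1 for 11. Over the 15 genes of highest pair share, it was below the uninjected level for 14 and within 2-fold of the injected side for 8. No test was made on 2 cells.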

How the results depend on the processing

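No paired analysis was possible because the labels give no replicate numbers or animals that the 2 groups share. The 1472 higher and 1345 lower genes came to 2560 and 2534 with no filter on low genes (17173 genes), 483 and 567 with a stricter filter (5039 genes), 1037 and 877 with a pseudocount of 10 CPM and 1589 and 2395 without microglia-rich cells. The share of higher among counted genes was 52.3%, against 39.9% without microglia-rich cells. In the other 10 settings both counts stayed within 1.5 times.

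Of 177 named genes 18 changed sign without microglia-rich cells, to log2 ratios of -0.87 (Cck), -0.30 (Lonrf3), -1.17 (Dcc), -3.22 (Tcf3), -2.29 (Psmb8), -0.31 (Psme1), -0.14 (mt-Nd6), -0.0069 (Oasl1), -0.0069 (H2-Q7), -1.16 (Cxcl16), -0.95 (C3ar1), -0.74 (C4b), -0.77 (C1qc), -0.027 (Ctsh), -1.99 (Laptm5), -1.83 (Apoe), -1.01 (Cst7) and -5.47 (Gfap). Gfap also went to -1.22 without the cell over 5% mitochondrial reads and to -0.940 without the highest cell of each group, and Cck to -1.9996 without the deepest and shallowest 10% of cells. Of 43 list medians 17 changed sign without microglia-rich cells, 13 of them under 0.5 in size with all cells. The other 4 were those of cytokines and chemokines (-0.059), microglia markers (-0.15), reactive microglia genes (-0.50) and astrocyte markers (-0.29). The rule for measured genes was applied anew without those cells, so a list median need not cover the same members. The astrocyte median went to -1.22 without the cell over 5% mitochondrial reads and to -0.41 without the deepest and shallowest cells, and the interneuron median to -0.00465 with no filter. The cause of these changes was not tested. No other setting reversed one of the 177 named genes, or a list median of 0.5 or more in size. The 177 do not include the further list members chosen after their values were seen, which were not counted here. With 1 sample a day, depth limits single low genes, and animals and batches cannot be separated.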
